A study of Zea mays with 12 samples.

Results

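The genes described here are 5 heat shock genes of maize, hsp18a, hsp18c, hsp18f, hsp22 and hsp101, followed through the endosperm of 2 inbred lines and their reciprocal hybrids. They were chosen by name: every probe set whose gene symbol or RefSeq synonym is one of these names was taken. The array's annotation names 1108 distinct genes, and these 5 gave 6 of the 17621 probe sets that are not controls, with 2 for hsp18c and 1 for each other gene, and 5 of the 6, 1 per gene, were bright enough to be tested. Endosperm, the nutritive tissue of the kernel, was taken 13 days after pollination from field-grown plants of the inbreds B73 and Mo17 and of both crosses between them, written B73xMo17 and Mo17xB73. There were 3 one-colour Affymetrix arrays for each of these 4 genotypes, a total of 12, with the RNA of 6 ears in every pool. The growth protocol gives 6 endosperms per ear and the design text 5. Replicate numbers 1 to 3 stand for 3 crossing dates, on each of which all genotypes were crossed within 30 minutes. No treatment was applied, so the levels are those of kernels grown in the field.

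Heat shock proteins are molecular chaperones. Small heat shock proteins, the family of the hsp18 genes and of hsp22, bind proteins that are unfolding and keep them from clumping. The hsp22 product works in mitochondria, and HSP101, a ring-shaped ATPase, pulls proteins out of aggregates together with HSP70 and is needed for plants to survive strong heat. Heat shock transcription factors switch these genes on when unfolded proteins build up, and several are also made in developing seeds without heat.

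Levels below are MAS5 signal, the brightness of a probe set on a linear scale, after the arrays were brought to a common median over the 10721 brighter probe sets. Differences are in log2 units with their standard error (3 arrays a genotype), and p was adjusted by Benjamini-Hochberg over the limma tests of all 10708 tested probe sets. A difference was called when its adjusted p was under 0.05. The scaling factors ran from 0.891 to 1.30, the 2 largest on B73xMo17 replicates 1 and 2, which were dim as deposited. Sequence differences between B73 and Mo17 under the probes cannot be told apart from differences in RNA. Levels are compared within a probe set only, not between genes. Fewer cells of a type and less RNA per cell cannot be told apart in this whole tissue.

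**Figure D1:**
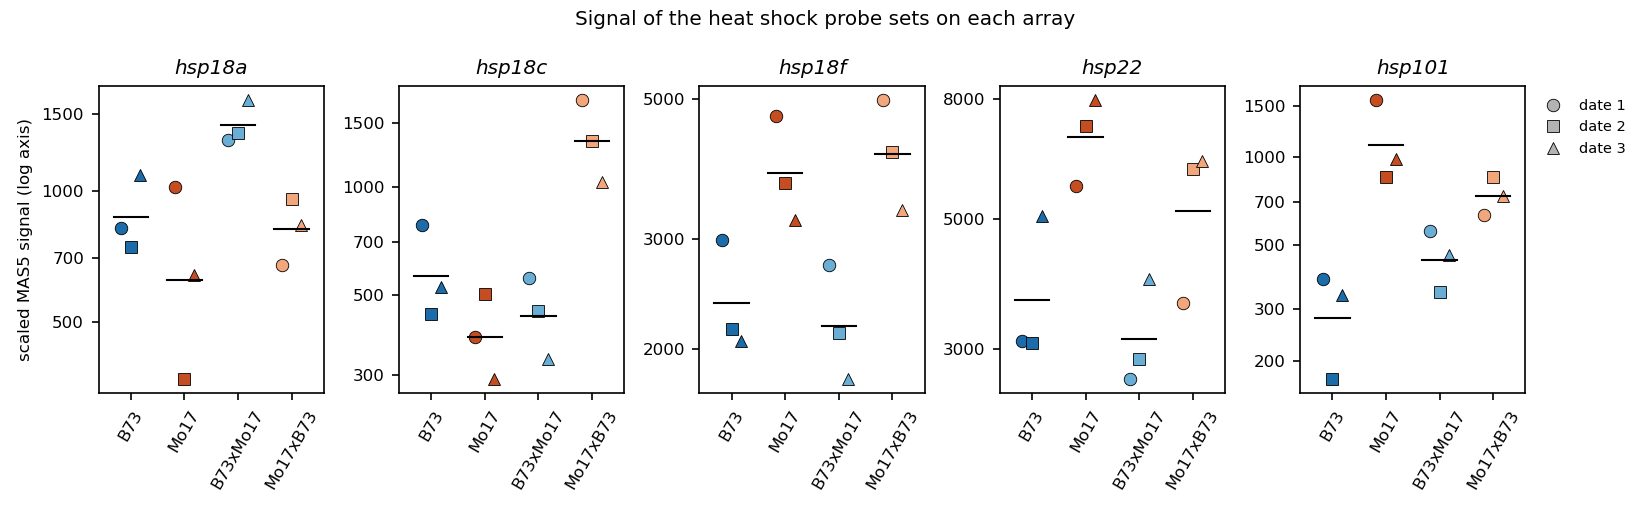
Scaled MAS5 signal (log axis) of the tested probe set of each heat shock gene on each of the 12 arrays, by genotype; the symbol gives the crossing date and the line the geometric mean of 3 arrays. For hsp18c the Mo17xB73 arrays lie between 1033 and 1743, above all others, and for hsp101 the Mo17 arrays lie highest, and the B73 arrays overlap those of B73xMo17.

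The small heat shock gene hsp18c (LOC100037778) was highest in Mo17xB73, above both inbreds and above the reciprocal hybrid. On dates 1, 2 and 3 it read 1743, 1343 and 1033 in Mo17xB73. In B73xMo17 it read 556, 451 and 332. The inbred readings were 781, 441 and 526 in B73 and 382, 501 and 291 in Mo17. No array of another genotype reached the lowest Mo17xB73 array, and the other 3 genotypes overlapped one another. Mo17xB73 was 3.51-fold above Mo17 (1.81 ± 0.27, adjusted p 0.000449) and 2.37-fold above B73 (1.25 ± 0.27, adjusted p 0.00261). The reciprocal hybrid B73xMo17 was 3.07-fold lower than Mo17xB73 (-1.62 ± 0.27, adjusted p 0.000952), by -1.65, -1.57 and -1.64 on the 3 dates. B73xMo17 itself was not called against B73 (-0.37 ± 0.27, adjusted p 0.442) or Mo17 (0.19 ± 0.27, adjusted p 0.569). The inbreds were not called without a block for date (0.57 ± 0.27, adjusted p 0.0893) and were called, higher in B73, with it (0.57 ± 0.18, adjusted p 0.0149), although on date 2 Mo17 read higher. They were also called without B73 replicate 2 (0.75, adjusted p 0.0486) and without Mo17 replicate 2 (0.76, adjusted p 0.0410), while the difference was 0.33 without B73 replicate 1 (adjusted p 0.326) and 0.37 without Mo17 replicate 3 (adjusted p 0.298).

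A second hsp18c probe set, made from the same array sequence, was dim everywhere. It read from 4.92 to 32.1 over the 12 arrays with a median of 14.4, and 7 arrays lay under the floor of 14.9. It was not tested. The identifiers of the dim and the bright probe set differ in their ending, and whether both read the same strand was not tested. The array's identifiers place hsp18c and hsp18f in one sequence cluster, and how far each probe set reads RNA of the other gene was not tested.

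In hsp18f (LOC542723) each hybrid overlapped the parent written first, by maize convention the mother, and was called against the other parent. The gene read 2982, 2153 and 2060 in B73 on the 3 dates, and 2720, 2126 and 1792 in B73xMo17. In Mo17 it read 4708, 3679 and 3216, and in Mo17xB73 it read 4984, 4125 and 3332. B73 and B73xMo17 overlapped, as did Mo17 and Mo17xB73, and every array of the second pair lay above every array of the first. B73 was 1.61-fold lower than Mo17 (-0.69 ± 0.20, adjusted p 0.0102), a call that missed the threshold without Mo17 replicate 1 (-0.54, adjusted p 0.05004). With date as a block the inbred difference was -0.69 ± 0.05 (adjusted p 5.13e-07). B73xMo17 was 1.88-fold lower than Mo17xB73 (-0.91 ± 0.20, adjusted p 0.00472). The differences from the mother were not called. They were -0.12 ± 0.20 for B73xMo17 (unadjusted 95% interval -0.55 to 0.31, adjusted p 0.782) and 0.10 ± 0.20 for Mo17xB73 (-0.33 to 0.53, adjusted p 0.831). That spread includes the crossing dates. With date as a block they were -0.12 ± 0.05 (adjusted p 0.158) and 0.10 ± 0.05 (adjusted p 0.243), again not called. On dates 1, 2 and 3 B73xMo17 minus B73 was -0.13, -0.02 and -0.20, and Mo17xB73 minus Mo17 was 0.08, 0.165 and 0.05. Against the father, B73xMo17 lay 1.75-fold below Mo17 (-0.81 ± 0.20, adjusted p 0.00482) and Mo17xB73 lay 1.73-fold above B73 (0.79 ± 0.20, adjusted p 0.00683).

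The third small heat shock gene, hsp18a (LOC542293), ran differently and was highest in B73xMo17. It read 1304, 1353 and 1614 in B73xMo17 on the 3 dates, and 677, 960 and 837 in Mo17xB73. B73 gave 820, 744 and 1085. Mo17 was the most uneven, at 1018, 371 and 643. The B73xMo17 arrays lay above all others, while the other 3 genotypes overlapped. B73xMo17 was 2.27-fold above Mo17 (1.18 ± 0.28, adjusted p 0.00417). It was 1.74-fold above Mo17xB73 (0.80 ± 0.28, adjusted p 0.0484), and this call was lost in 13 of 20 alternatives, among them the deposited scale (0.56, adjusted p 0.144) and the fit without the 2 dim arrays (0.98, adjusted p 0.140). Against B73 the difference was not called (0.70 ± 0.28, adjusted p 0.149), nor was that between the inbreds (0.48 ± 0.28, adjusted p 0.166). The inbred difference turned on single Mo17 arrays: it was called without replicate 1 (0.84, adjusted p 0.0109) and was 0.11 without replicate 2 (adjusted p 0.709). In turn, without Mo17 replicate 2 B73xMo17 was called against B73 (0.70, adjusted p 0.0390).

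The mitochondrial small heat shock gene hsp22 (LOC542602) was higher in Mo17 than in B73 and B73xMo17. It read 5694, 7216 and 7984 in Mo17 on the 3 dates, and 3097, 3069 and 5059 in B73. B73xMo17 read 2660, 2881 and 3953, and Mo17xB73 read 3583, 6072 and 6266. The Mo17 arrays lay above all arrays of B73 and B73xMo17, and Mo17xB73 overlapped each of the other genotypes. B73 was 1.90-fold lower than Mo17 (-0.92 ± 0.24, adjusted p 0.00642), and B73xMo17 was 2.21-fold lower than Mo17 (-1.15 ± 0.24, adjusted p 0.00199). The second of these was not called without both dim arrays (-0.80, adjusted p 0.0978). B73xMo17 was 1.65-fold lower than Mo17xB73 (-0.72 ± 0.24, adjusted p 0.0391), with overlapping arrays. That call was lost in 7 of 20 alternatives. They included no filter on dim probe sets (adjusted p 0.121) and no intensity trend (adjusted p 0.0589). It was also lost without B73xMo17 replicate 1 (-0.61) or 2 (-0.67), and without Mo17xB73 replicate 2 (-0.60) or 3 (-0.58). Without both dim arrays the difference was -0.38. Mo17xB73 was not called against B73 (0.50 ± 0.24, adjusted p 0.121) or Mo17 (-0.42 ± 0.24, adjusted p 0.346). With date as a block both were called (0.50 ± 0.12, adjusted p 0.00527, and -0.42 ± 0.12, adjusted p 0.0332), and on each date Mo17xB73 lay between the inbreds. Mo17xB73 was also called above B73 without B73 replicate 3 (0.74, adjusted p 0.0312) or without Mo17xB73 replicate 1 (0.76, adjusted p 0.0198).

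The disaggregase gene hsp101 (LOC541780) had the largest difference between the inbreds among the 5 genes. It read 1574, 858 and 983 in Mo17 on the 3 dates, and 382, 173 and 336 in B73. The hybrids lay between them, with 557, 343 and 460 in B73xMo17 and 634, 855 and 734 in Mo17xB73. The order was B73, B73xMo17, Mo17xB73, Mo17, and only B73 and B73xMo17 overlapped. B73 was 3.91-fold lower than Mo17 (-1.97 ± 0.29, adjusted p 0.000103). B73xMo17 was 2.47-fold below Mo17 (-1.30 ± 0.29, adjusted p 0.00295) and Mo17xB73 was 2.62-fold above B73 (1.39 ± 0.29, adjusted p 0.00248). Neighbours in this order were not called: B73xMo17 against B73 gave 0.66 ± 0.29 (adjusted p 0.191), and Mo17xB73 against Mo17 gave -0.58 ± 0.29 (adjusted p 0.275). The hybrids differed by -0.73 ± 0.29 (adjusted p 0.0785), called with date as a block (-0.73 ± 0.23, adjusted p 0.0248), on the deposited scale (-0.96, adjusted p 0.0145) and without B73 replicate 2 (-0.73, adjusted p 0.0311). Within dates that difference ran from -0.19 on date 1 to -1.32 on date 2.

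**Figure D2:**
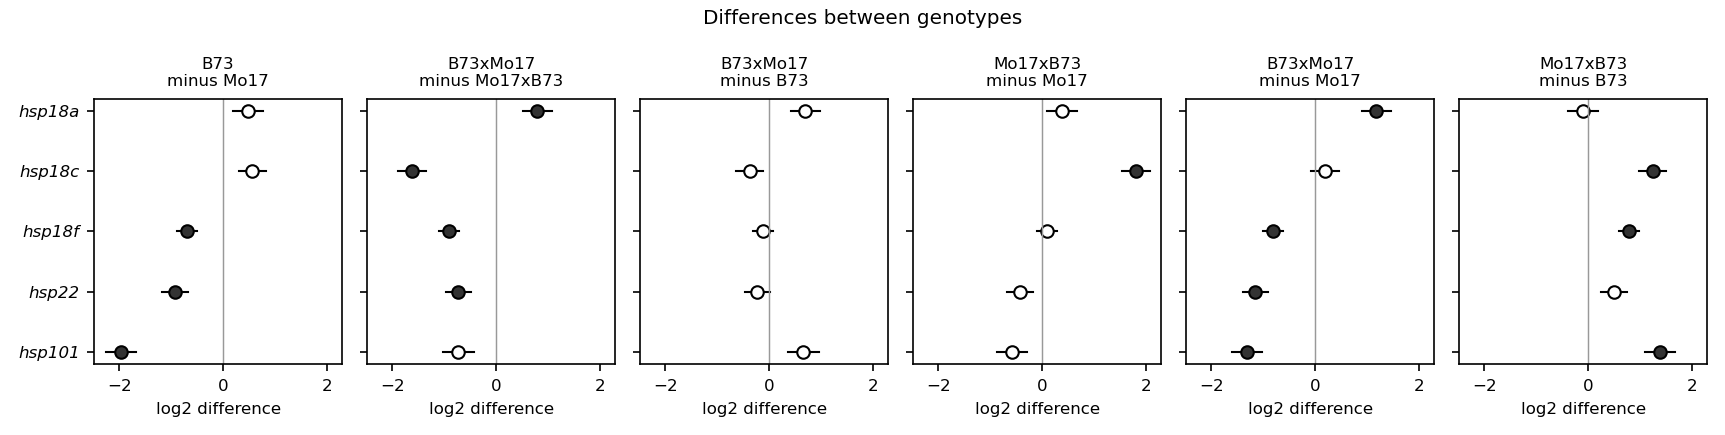
Log2 differences between genotypes for the 5 heat shock genes in 6 comparisons; bars are 1 standard error from limma, and filled points had an adjusted p under 0.05. B73xMo17 minus B73 has no filled point, and hsp18c is the filled point in Mo17xB73 minus Mo17, at 1.81.

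Counted over the 5 tested probe sets, calls were more frequent between genotypes with different mothers than between a hybrid and its mother, as they were over all probe sets. The inbreds, and a hybrid and its father, also differ in more genome copies than a hybrid and its mother. The parts of mother and copy number in these counts were not tested. Between B73 and Mo17, 3 of the 5 probe sets were lower in B73 and 0 higher (hsp18f, hsp22, hsp101). Of all tested probe sets 53.6% were called there, 26.1% as lower, so calls were common throughout the array. With the block, 4 members and 63.4% of all were called. Between the reciprocal hybrids 4 were called, 3 lower in B73xMo17 and hsp18a higher, against 31.2% of all probe sets, 15.9% lower and 15.3% higher, and with the block 5 against 44.5%. The count was 2, hsp18c and hsp18f, without B73xMo17 replicate 1 or 2 and without Mo17xB73 replicate 2 or 3. Over all probe sets those fits called 2693, 2648, 2200 and 2642, against 3342 in the main fit, so calls fell throughout the array. Left unscaled, the arrays gave 1635 higher and 3053 lower between the inbreds over all probe sets (2946 and 2795 scaled), and 393 higher and 2780 lower between the hybrids (1642 and 1700 scaled). Against the mother, 0 were called for B73xMo17 (9.91% of all) and 1 for Mo17xB73 (hsp18c, 11.1% of all; with the block also hsp22, 18.9% of all). By limma's unadjusted p, 2 members were under 0.05 for B73xMo17, hsp18a and hsp101, and the share of all probe sets under that threshold was not counted. Against the father, 4 were called for B73xMo17 (49.5% of all) and 3 for Mo17xB73 (39.6% of all; with the block 4, 51.1% of all). These comparisons share arrays: the inbred arrays enter all of them except the difference between the hybrids. The median log2 difference of the 5 was -0.69 between the inbreds and -0.73 between the hybrids, against 0.01 and 0.01 over all tested probe sets. These medians are the values of single genes, hsp18f between the inbreds and hsp101, not called, between the hybrids. The 5 did not share a direction: hsp18a (0.48) and hsp18c (0.57), neither called, had the other sign between the inbreds, and hsp18a (0.80) between the hybrids.

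Non-additive expression is in the title of the series, and each hybrid was set against a weighted parental mean in which the mother counted 2 and the father 1, the ratio of genome copies in endosperm. The comparison takes signal as proportional to RNA. For hsp18c the weighted mean was 443 in Mo17xB73 and the observed level 1342, a departure of 1.60 ± 0.23 (3.03-fold, adjusted p 0.00682), called in all 20 alternatives with values from 1.41 to 1.79. In B73xMo17 the same gene read 437 against 505 (-0.21 ± 0.24, adjusted p 0.648). The difference between these departures, a comparison added after the hsp18c values were seen, was -1.81 ± 0.28 (adjusted p 0.00278). It was called for 1 of the 5 probe sets and 7.85% of all. The comparison missed the threshold for hsp18f (-0.68 ± 0.21, adjusted p 0.0640; with the block ± 0.06, adjusted p 4.93e-05), which was called without B73xMo17 replicate 1 (-0.84, adjusted p 0.0446) and on the deposited scale (-0.87, adjusted p 0.0115). It was also missed by hsp18a (0.64 ± 0.30, adjusted p 0.210; without Mo17 replicate 2 0.76, adjusted p 0.0409), by hsp22 (-0.42 ± 0.25, adjusted p 0.332; with the block ± 0.13, adjusted p 0.0371) and by hsp101 (-0.15 ± 0.30, adjusted p 0.808).

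**Figure D3:**
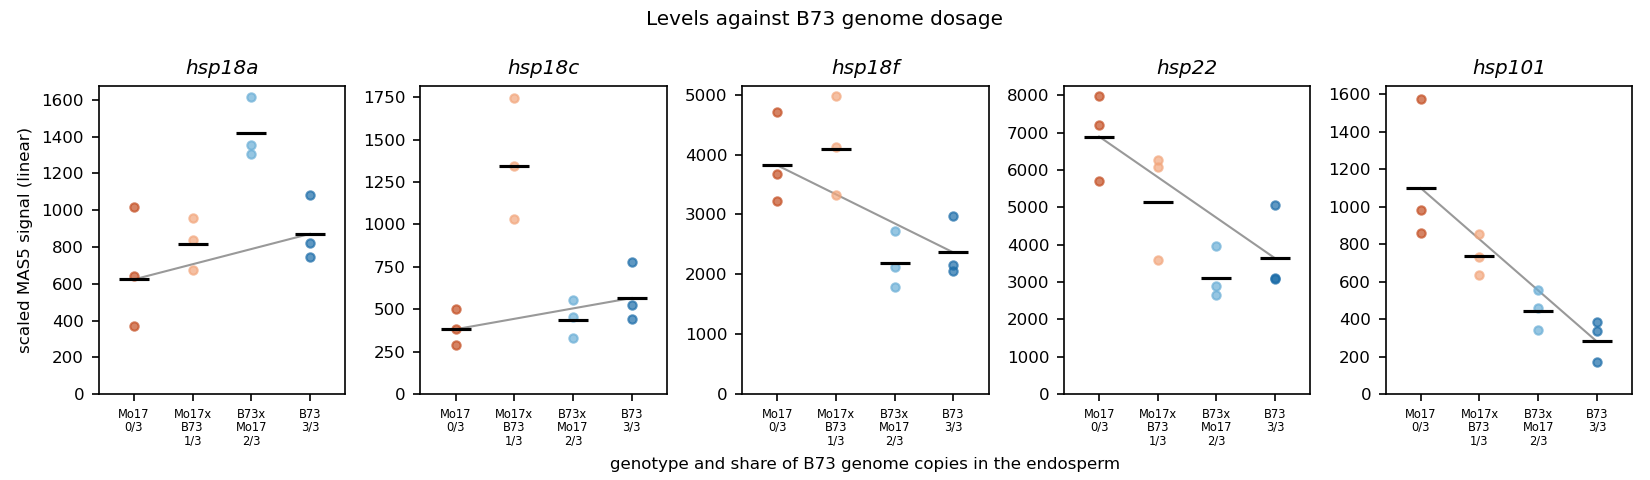
Scaled MAS5 signal (linear axis) of each heat shock gene against the share of B73 genome copies in the endosperm, taking the first parent written as mother; dots are arrays, bars geometric means, and the grey line joins the inbred means. The Mo17xB73 mean of hsp18c, 1342, stands above the line at 443, and the hsp101 means of 445 and 736 lie below 554 and 826.

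Neither hybrid was called against its weighted mean for hsp101. B73xMo17 read 445 against 554 (-0.32 ± 0.26, unadjusted 95% interval -0.88 to 0.25, adjusted p 0.498), and Mo17xB73 read 736 against 826 (-0.17 ± 0.28, interval -0.77 to 0.44, adjusted p 0.924). The weighted means alone give a reciprocal difference of -0.58, and the observed one was -0.73. For hsp18f they give -0.23 and the observed one was -0.91. Its levels were 2180 against 2850 in B73xMo17 (-0.39 ± 0.17, adjusted p 0.203) and 4092 against 3334 in Mo17xB73 (0.30 ± 0.18, adjusted p 0.640). With date as a block both were called, as -0.39 ± 0.05 (adjusted p 0.000569) and 0.30 ± 0.05 (adjusted p 0.00947). For hsp22, B73xMo17 read 3117 against 4723 (-0.60 ± 0.21, adjusted p 0.120; with the block ± 0.11, adjusted p 0.00416) and Mo17xB73 5147 against 5810 (-0.17 ± 0.22, adjusted p 0.883). For hsp18a, B73xMo17 read 1418 against 789 (0.85 ± 0.25, adjusted p 0.0786; with the block ± 0.24, adjusted p 0.0306) and Mo17xB73 816 against 706 (0.21 ± 0.25, adjusted p 0.869).

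Over the 5 probe sets, 0 departed from the weighted mean in B73xMo17 by limma's adjusted p (4.19% of all). By limma's unadjusted p 3 were under 0.05 (hsp18a, hsp18f and hsp22). The share of all probe sets under that threshold was not counted, so no excess can be read from the 3. On the deposited scale hsp18f (-0.65, adjusted p 0.0121) and hsp22 (-0.87, adjusted p 0.0106) were called, and without Mo17 replicate 1 hsp18a was (0.93, adjusted p 0.0263). In Mo17xB73 1 departed (0.925% of all). The array-wide counts behind these shares fell without single arrays, from 449 to as few as 121 in B73xMo17 (without its replicate 1) and from 99 to as few as 26 in Mo17xB73 (without its replicate 3). With date as a block the counts were 3 (18.1% of all) and 2 (3.94% of all), and for the difference between the departures 3 (21% of all). On each date the position of a hybrid between its parents can be given as a maternal share, 1 at the mother and 0 at the father. For hsp18f it was 1.15, 1.02 and 1.23 in B73xMo17 and 1.16, 1.29 and 1.10 in Mo17xB73, beyond the mother on all dates. Neither hybrid was called against its mother for hsp18f, even with date as a block (limma, adjusted p 0.158 and 0.243). Both differences changed sign without some single arrays. For hsp101 the maternal share was 0.853, 0.751 and 0.808 in B73xMo17, while in Mo17xB73 it ran from 0.212 to 0.995. For hsp22 it was 1.17, 1.05 and 1.38 in B73xMo17 and 0.187, 0.724 and 0.413 in Mo17xB73. Where the inbreds overlapped the share was unsteady. It ran from -1.45 to 2.63 for hsp18a in B73xMo17 and from -2.41 to 15.0 for hsp18c in Mo17xB73.

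**Figure D4:**
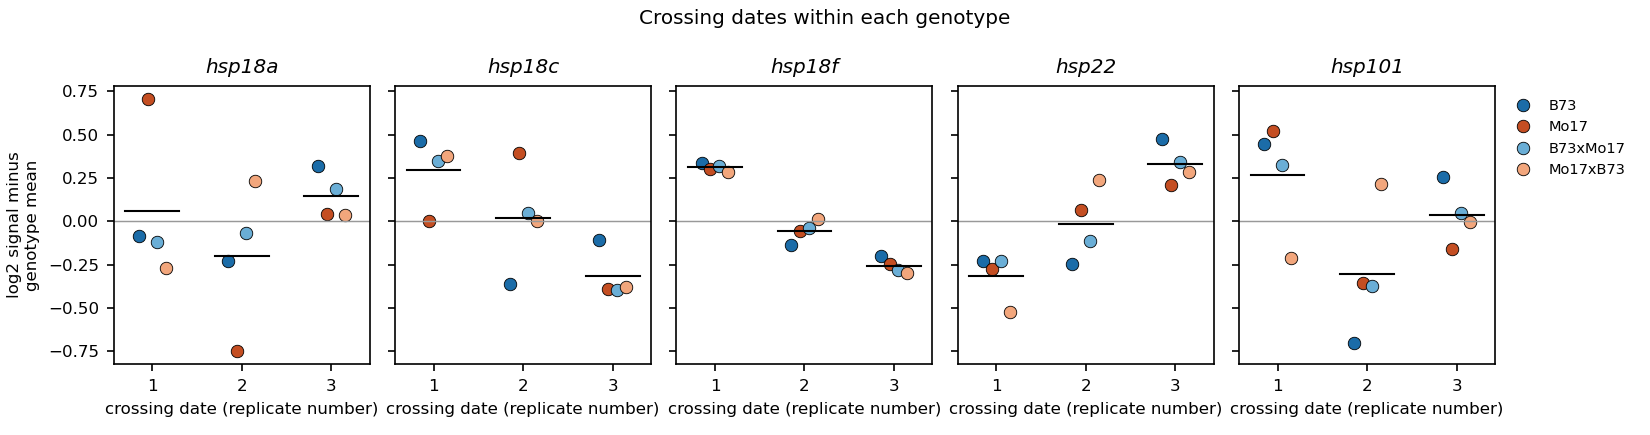
Log2 signal of each array minus the mean of its genotype, by crossing date, for the 5 heat shock genes; points are genotypes and lines the means of 4 arrays. For hsp18f all 4 genotypes are highest on date 1 and lowest on date 3, and for hsp22 all 4 are highest on date 3.

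Levels of hsp18f and hsp22 differed between crossing dates, in opposite directions. In all 4 genotypes hsp18f was highest on date 1 and lowest on date 3, with geometric means over 4 arrays of 3714, 2887 and 2508 (F test, adjusted p 8.62e-05). All 3 pairs of dates were called for it, date 1 over date 2 by 0.36 ± 0.05, date 1 over date 3 by 0.57 ± 0.05 and date 2 over date 3 by 0.20 ± 0.05. For hsp22 the date means were 3601, 4437 and 5624 (adjusted p 0.00763). It was highest on date 3 in 4 of 4 genotypes and lowest on date 1 in 3 of 4, and date 1 lay below date 3 by -0.64 ± 0.11 (adjusted p 0.00404). The gene hsp18c followed hsp18f, at 733, 605 and 479 (adjusted p 0.0419), highest on date 1 in 3 of 4 genotypes, with date 1 over date 3 by 0.61 ± 0.15 (adjusted p 0.0241). This F test of hsp18c was lost in 11 of 19 alternatives, with adjusted p up to 0.184.

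The F test was not passed by hsp101, at 679, 457 and 578 (adjusted p 0.128), or by hsp18a, at 927, 774 and 985 (adjusted p 0.457). On the deposited scale hsp101 passed (adjusted p 0.0315), as it did without Mo17xB73 replicate 1 or 2 (adjusted p 0.0282 and 0.0177). In all, 3 of 5 passed, against 18% of all tested probe sets. The pairwise tests called 7.11% of all between dates 1 and 2, 14.1% between dates 1 and 3 and 8.53% between dates 2 and 3. Without the filter on dim probe sets hsp18f alone of the 5 passed, and hsp22 had an adjusted p of 0.0724.

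Genotype took 74.3% of the sum of squares of hsp18f over the 12 arrays and date 25.1%, which left 0.693%. For hsp22 the shares were 69.2% and 24.1%, for hsp18c 82.9% and 10.5%, for hsp101 81.3% and 8.16%, and for hsp18a 60.9% and 7.31%. Over all tested probe sets the medians were 66.6% for genotype and 12.7% for date. After genotype means were removed, hsp18f correlated over the 12 arrays with hsp18c at 0.81 and with hsp22 at -0.80, and hsp18a with hsp101 at 0.64. These arrays share crossing dates, so the values describe the arrays and carry no test.

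Among 807 other tested probe sets with 1 named gene, those whose levels over the 12 arrays were most like each member were picked by Pearson correlation. They were PDC (pdc3, a pyruvate decarboxylase gene), lon1 and Bk2L3 for hsp18f (0.93, 0.92 and 0.91), and the expansin gene expA4, psk1 and the glutathione transferase gene gst31 for hsp18c (0.77, 0.75 and 0.73). For hsp22 they were the stomatin gene stm1, the calreticulin gene CRH and paa (0.96, 0.93 and 0.93). For hsp101 they were ccp2 (see1, a cysteine protease gene), the ascorbate peroxidase gene apx and SRP1A (0.94, 0.93 and 0.93). The carotenoid gene vp9, the starch branching enzyme gene ae1 and IPP were closest to hsp18a (0.82, 0.81 and 0.78). With genotype means removed, the closest were yuc, knox7 and set105 for hsp18f (0.97, 0.96 and 0.95), and HDT1, hon101 and phb3 for hsp22 (0.95, 0.93 and 0.93). They were sat3, Bk2L3 and MYB-IF35 for hsp18c (0.91, 0.89 and 0.89), the acetyltransferase gene gcn5, opr8 and hp2 for hsp18a (0.89, 0.81 and 0.78), and the tubulin gene tub4, ccp2 and the alcohol dehydrogenase gene adh2 for hsp101 (0.82, 0.80 and 0.77).

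The list of other genes of the heat shock response, matched by symbol or synonym, had 5 among the genes the array's annotation names. Probe sets without a named gene could not be matched. Of the 5, hsp26, the chloroplast small heat shock gene that RefSeq also calls hsp18, was too dim to test (mean 43.4). Of the 4 tested, the heat shock factor gene hsfb was 1.53-fold lower in B73 than in Mo17 (-0.62 ± 0.17, adjusted p 0.00836), at 107 and 164, and 121 in B73xMo17 and 149 in Mo17xB73. The hsp70-5 gene read 6476 in Mo17 and was higher in both hybrids, by 0.32 ± 0.08 in Mo17xB73 (adjusted p 0.0144) and 0.27 ± 0.08 in B73xMo17 (adjusted p 0.0109). The chaperonin gene CPN60I changed with crossing date (adjusted p 0.00589), and hsp70-4 was called in none of these comparisons. Between the inbreds 0 of the 4 were higher in B73 and 1 lower (53.6% of all tested probe sets called), with a median of 0.00. Between the hybrids 0 were called by limma's adjusted p (31.2% of all), 0 at an unadjusted p under 0.05, with a median of -0.05. Against B73, hsfb was higher in Mo17xB73 (0.48 ± 0.17, adjusted p 0.0406), and against Mo17 it was lower in B73xMo17 (-0.44 ± 0.17, adjusted p 0.0454). From the weighted mean 0 of the 4 departed in either hybrid by limma's adjusted p (4.19% of all in B73xMo17, 0.925% in Mo17xB73). At an unadjusted p under 0.05 there were 0 in B73xMo17 and 1 in Mo17xB73, and the share of all at that threshold was not counted. With date as a block, CPN60I departed in B73xMo17 (-0.18, adjusted p 0.0160) and was lower than in Mo17 in Mo17xB73 (-0.20, adjusted p 0.0135) and B73xMo17 (-0.25, adjusted p 0.00120).

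Folding genes of the endoplasmic reticulum, a separate compartment, included 14 tested genes. Between the inbreds 1 was higher in B73 and 3 were lower (median -0.22), where 53.6% of all tested probe sets were called. The lower ones were pdi5 by 4.81-fold, pdi4 by 2.34-fold and pdi8 by 2.00-fold, while PDIL5-1 was higher by 1.22-fold. Between the hybrids 0 were higher and 3 lower in B73xMo17 (pdi4, pdi6 and pdi5, median -0.17), against 31.2% of all called. With crossing date 3 of 14 changed (pdi7, pdi12 and pdi10), where 18% of all tested probe sets did. Against the mother, B73xMo17 had 1 higher (pdi5) and 1 lower (pdi6, 9.91% of all called). Mo17xB73 had 0 higher and 1 lower (pdi5, 11.1% of all called). Against the father, B73xMo17 had 2 higher and 5 lower (49.5% of all called), the smallest adjusted p being those of pdi4, pdi5 and pdi6. Mo17xB73 had 3 higher (pdi4, pdi5 and pdi8, 39.6% of all called). From the weighted mean, pdi6 departed in B73xMo17 (-0.40 ± 0.07, adjusted p 0.00714), where 4.19% of all did. In Mo17xB73 0 departed by limma's adjusted p (0.925% of all), 0 at an unadjusted p under 0.05. With date as a block the counts were 2 higher and 7 lower between the inbreds (63.4% of all) and 0 and 5 between the hybrids (44.5%). They were 2 and 1 for B73xMo17 against B73 (2180 of all 10708), and 1 and 1 for Mo17xB73 against Mo17 (18.9%). Against the father 2 were higher and 7 lower in B73xMo17 (6420 of all 10708) and 4 higher in Mo17xB73 (51.1% of all). From the weighted mean 2 then departed in B73xMo17 (18.1% of all) and 0 in Mo17xB73 (3.94%).

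Markers of other cell types moved with some of these contrasts. Starchy endosperm markers (11 of 12 entries tested) were bright in sum in all genotypes. Their summed signal ran from 109062 to 120113 in B73, 67126 to 73232 in Mo17, 112658 to 128291 in B73xMo17 and 78626 to 92158 in Mo17xB73. The name ae1 fell on a bright and a dim entry (means 11035 and 19.2). How evenly the markers shared the differences in this sum was not examined. The 2 embryo surrounding region markers on the array summed to 60.9 to 288 in B73, 286 to 1223 in Mo17, 138 to 357 in B73xMo17 and 561 to 1010 in Mo17xB73. In the same order the aleurone markers (3 of 4 tested) summed to 906 to 970, 1271 to 1365, 987 to 1046 and 1036 to 1135. The aleurone sum was mostly dek1 (mean 794), and c1 was too dim to test (mean 13.5). Basal transfer layer markers (7 of 10 tested) summed to 1600 to 11401 in B73, 5264 to 19464 in Mo17, 1809 to 7932 in B73xMo17 and 7110 to 21503 in Mo17xB73, and were lowest on date 2 in each genotype. Embryo markers (3 of 7 tested) overlapped among all genotypes and ran from 4321 to 4817 on date 2, above dates 1 and 3 (3093 to 4213). Green tissue markers (2 of 5 tested) summed to 11834 to 13638 in B73, 7637 to 9519 in Mo17, 12950 to 14822 in B73xMo17 and 8971 to 10580 in Mo17xB73, mostly the PPDK probe set, a gene endosperm also uses, and pep1 and rbcS were too dim to test. The part of these cell types in the heat shock results was not tested.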

How the data were processed

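Endosperm RNA of 12 samples was hybridised to Affymetrix arrays, and the deposited values are signal intensity per probe set, made by the authors with MAS5 per the submitters' processing notes. No source used here gives its version or scaling. Each array was scaled to a common median over the 10721 probe sets whose mean deposited signal exceeded the pooled 40th percentile, a floor of 14.9, the 20th percentile over all arrays, was set, and log2 was taken. Of 17734 probe sets, 113 controls were left out, and 10708 with a mean above 72.3 (the pooled 40th percentile) were tested. Genotype means were fitted with limma 3.58.1 in R 4.3.3 (intensity trend, Benjamini-Hochberg, two-sided), a procedure tested on simulated data. The simulated noise was independent between arrays, so that test did not cover the shared deviation of arrays of one date given below. Departures from the weighted parental mean used the delta method. Crossing date was tested by an F test in a fit of genotype plus date. The labels tie replicate numbers to crossing dates, and arrays of one number deviated together (correlations of 0.247 to 0.593 over 18 pairs), so a fit with date as a block was an alternative to the main one without it.

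Arrays hold separately pooled ears per crossing date, and 3 per genotype limit the precision. Members are named by symbol or RefSeq synonym. The genes most like each member are the 3 with the highest correlation, and up to 4 called genes are named per list. Members, lists and tests were chosen with earlier results of these data known. The mother is taken to be written first, which the labels do not state. Alternatives were the deposited scale, quantile normalization, an offset of 50 in place of the floor, no filter or a stricter one, no intensity trend, the date block, and leaving out each array or both dim arrays.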

Additional observations from a re-analysis of the deposited data

Results flagged for a closer look

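The response of hsp18c differed between the reciprocal hybrids by a test of the difference itself. Its departure from the weighted parental mean differed by -1.81 ± 0.28 on the log2 scale, B73xMo17 minus Mo17xB73 (limma, adjusted p 0.00278), and the call was kept in all alternatives run. The comparison was added after the hsp18c values had been seen, and the second, dim hsp18c probe set could not be used to check it.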

How the results depend on the processing

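Of 20 called results on single genes, 14 kept direction and call in every alternative, and the other 6 lost the call in 34 fits in all. Among results not called, 16 fits reversed the sign. The hsp22 difference of B73xMo17 from B73 was 0.12 without both dim arrays. On the deposited scale the hsp18f difference of Mo17xB73 from Mo17 was -0.00773. The hsp18c difference of B73xMo17 from Mo17 was -0.15 on the deposited scale and -0.20 without both dim arrays. Leaving out one array gave ranges that crossed 0: B73xMo17 minus B73 ran from -0.28 to 0.04999 for hsp18f and -0.39 to 0.0165 for hsp22, and Mo17xB73 minus Mo17 from -0.0424 to 0.25 for hsp18f. B73xMo17 minus Mo17 ran from -0.00285 to 0.39 for hsp18c, and Mo17xB73 minus B73 from -0.21 to 0.0640 for hsp18a. The Mo17xB73 departure ran from -0.0244 to 0.41 for hsp18a, -0.32 to 0.0870 for hsp22 and -0.33 to 0.0605 for hsp101, and the difference of departures from -0.31 to 0.0392 for hsp101. The cause was not tested.

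Counts of called members moved in some fits. With the replicate block, which pairs arrays by crossing date, 2 were called for Mo17xB73 minus Mo17, 3 and 2 for the departures of B73xMo17 and Mo17xB73, and 3 for their difference. Between the hybrids 2 were called with no filter and with no intensity trend (3079 and 3202 over all probe sets, 3342 in the main fit). The deposited scale called 2 departures in B73xMo17 (2539 over all probe sets) and 2 differences of departures (847). With no filter 1 date effect was called (916 over all probe sets). Leaving out one array gave 2 to 4 between the hybrids, 0 to 1 for B73xMo17 minus B73, 0 to 1 for B73xMo17 departures, 1 to 2 for the difference of departures and 2 to 3 for crossing date.

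Over all probe sets, the block called 2180 against 1061 without it for B73xMo17 minus B73, 2023 against 1184 for Mo17xB73 minus Mo17, 1936 against 449 and 422 against 99 for the departures, and 2254 against 841 for their difference. Without both dim arrays the same comparisons gave 381 (B73xMo17 minus B73), 18 and 51 (departures) and 196 (their difference), with 1637 against 3342 between the hybrids, 3434 against 5296 for B73xMo17 minus Mo17 and 905 against 1923 for date. The deposited scale gave 2827 against 4241 for Mo17xB73 minus B73, 765 for Mo17xB73 minus Mo17, 2539 and 29 departures and 699 for date. No filter gave 244 departures in B73xMo17 and 916 for date, the stricter filter 687 and 693 against the mothers (fewer tested), and quantile normalization 152 departures in Mo17xB73. Unscaled, the median of all probe sets moved to -0.14 between the inbreds, -0.23 between the hybrids, -0.20 and -0.34 for B73xMo17 against B73 and Mo17, -0.12 for Mo17xB73 minus Mo17, and -0.26 and -0.19 for the B73xMo17 departure and the difference of departures. Higher and lower calls were then 314 and 802 for B73xMo17 minus B73 (650 and 411 scaled), 994 and 4852 for B73xMo17 minus Mo17 (2694 and 2602), 32 and 2507 for B73xMo17 departures (140 and 309), 19 and 10 for Mo17xB73 departures (53 and 46), and 74 and 773 for their difference. Leaving out one array gave 121 to 558 departures in B73xMo17 and 26 to 88 in Mo17xB73, 387 to 920 for their difference, 2200 to 3342 between the hybrids, 701 to 1071 for B73xMo17 minus B73 and 1106 to 1873 for date. Signal near the floor limited the second hsp18c probe set.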
